A study of Mus musculus with 12 samples.

Results

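The genes of cholesterol synthesis were examined in tumors of C57BL/6 mice grown from LLC1-shLkb1 cells. These cells are a mouse Lewis lung carcinoma line in which a short hairpin RNA lowers Lkb1 (Stk11). The study describes subcutaneous and left-chest tumors of such cells, and its methods do not say which were sequenced. The 8 genes described here (Srebf2, Hmgcs1, Mvd, Idi1, Fdps, Fdft1, Sqle and Insig1) are a list of the SREBP2 pathway. It was chosen with earlier results of these data known. All 8 were found among the 34678 gene symbols of the tables. All 8 were also above the filter on low values that left 15350 genes for testing. RNA was sequenced from 12 tumors, 3 in each of 4 arms: vehicle (control immunoglobulin G), palbociclib, anti-PD-1 antibody, and both agents together (combination). Palbociclib inhibits the cell cycle kinases CDK4 and CDK6, and the anti-PD-1 antibody blocks an inhibitory receptor of T cells.

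Every arm carried the Lkb1 knockdown, so no arm shows these genes with Lkb1 intact, and the 4 arms stand on 1 transplanted line in young mice of both sexes, as the study's methods give them. Stk11 itself lay between 7.90 and 11.5 FPKM in the 12 tumors. The tumors were sequenced whole. The labelled lung adenocarcinoma expressed the epithelial keratin gene Krt8 at 62.0 to 276 FPKM, while Krt18, Krt19 and Epcam were near 0, with medians of 0.235, 0.0470 and 0.162 FPKM. FPKM is a fragment number scaled to gene length and sequencing depth, so levels of different genes can be set side by side. About 14900000 to 20300000 fragments per tumor were estimated from the smallest steps between FPKM values, which puts 435 to 6974 fragments behind each of the 8 genes in a tumor.

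Cells make cholesterol from acetyl-CoA through the mevalonate pathway, and the level of sterol in the membrane of the endoplasmic reticulum sets how much of the pathway is transcribed. When sterol is low, SCAP escorts the transcription factor SREBP2, encoded by Srebf2, to the Golgi, where it is cleaved to an active form that turns on the enzyme genes. INSIG proteins hold SCAP back when sterol is high, and Insig1 is itself a target of SREBP2, as is Srebf2. Dividing tumor cells use the pathway for membrane sterol and for the prenyl groups that anchor small GTPases.

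SREBP2 acts through a sterol regulatory element in the promoter and works with the CCAAT-binding factor NF-Y, so the promoters are shown with both motifs. RefSeq promoters of GRCm38.p6, running from 250 bases before to 50 after the start, were at hand for 5 of the 8 genes. In the stretches printed below, capitals mark the element core TCACNCCA or the CCAAT box, which reads ATTGG where it lies on the other strand. Each is written along the strand of its gene.
Srebf2, chr15:82147092-82147153 (GRCm38, plus strand): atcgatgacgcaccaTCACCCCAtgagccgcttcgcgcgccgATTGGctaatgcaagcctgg
Hmgcs1, chr13:119690160-119690236 (GRCm38, plus strand): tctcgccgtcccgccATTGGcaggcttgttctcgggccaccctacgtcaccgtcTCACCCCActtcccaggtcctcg
Mvd, chr8:122443430-122443497 (GRCm38, minus strand): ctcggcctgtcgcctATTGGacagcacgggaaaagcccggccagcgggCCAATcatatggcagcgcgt
Idi1, chr13:8885546-8885605 (GRCm38, plus strand): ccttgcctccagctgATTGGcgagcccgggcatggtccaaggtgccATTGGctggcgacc
Insig1, chr5:28071181-28071215 (GRCm38, plus strand): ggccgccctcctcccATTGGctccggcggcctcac

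The element core was present in 2 of the 5 promoters, those of Srebf2 and Hmgcs1, where its first base lay at -162 and -137 relative to the start. Searched on both strands, the same letters occurred in 4.36% of all 32851 promoters of this length. A CCAAT box was present in 5 of 5, against 37.4% of all promoters. Among 13 other synthesis genes, which had 16 promoters, 1 gene held the element core and 12 held a CCAAT box in at least 1 promoter. These are counts of genes, while the shares of 4.36% and 37.4% are of promoters. These are matches of letters within a short window and say nothing of binding.

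Srebf2, the transcription factor gene (chr15:82147181-82205379, plus strand, GENCODE M21 on GRCm38 as for the positions that follow), varied least of the 8. Its level was 51.7, 40.3 and 44.5 FPKM in vehicle replicates 1 to 3, 38.0, 46.3 and 33.5 with palbociclib, 32.8, 46.3 and 32.9 with anti-PD-1, and 51.0, 54.2 and 47.9 with the combination. All 3 combination tumors lay above all palbociclib and all anti-PD-1 tumors, while vehicle replicate 1 lay among them. Arm means were 45.5 ± 5.75, 39.3 ± 6.51, 37.3 ± 7.77 and 51.0 ± 3.15 FPKM (SD, n = 3 each).

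Insig1 (chr5:28071363-28078662, plus strand), the sterol-responsive brake on SREBP processing, stood at 20.6, 17.6 and 18.0 FPKM in the vehicle tumors and at 18.6, 22.1 and 13.5 FPKM with anti-PD-1. It measured 22.3, 32.7 and 16.0 FPKM with palbociclib and 49.0, 31.3 and 25.2 FPKM with the combination. Each combination tumor was above every vehicle and every anti-PD-1 tumor, and palbociclib replicate 2 fell inside the combination range. The vehicle mean was 18.7 ± 1.63 FPKM and the combination mean 35.2 ± 12.4 FPKM (SD, n = 3), the latter drawn up by replicate 1.

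Hmgcs1 (chr13:119690379-119708260, plus strand) encodes the cytosolic HMG-CoA synthase, an early enzyme of the pathway, and had the highest level of the 8, at the 95.1th percentile of mean FPKM among the genes tested. It measured 63.1, 44.7 and 46.5 FPKM in vehicle tumors, 49.2, 68.7 and 36.6 with palbociclib, 45.8, 50.6 and 35.2 with anti-PD-1, and 94.9, 69.7 and 54.1 with the combination. The combination tumors cleared the anti-PD-1 tumors and overlapped both other arms.

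Mvd (chr8:122433601-122443422, minus strand), the decarboxylase that yields isopentenyl diphosphate, was the only 1 of the 8 whose 3 combination tumors lay above all 9 others. Its levels were 27.98, 15.2 and 18.1 FPKM in vehicle tumors, 18.8, 26.9 and 18.1 with palbociclib, 21.8, 20.2 and 15.02 with anti-PD-1, and 43.7, 29.5 and 28.8 with the combination. The margin was narrow, 28.8 FPKM in combination replicate 3 against 27.98 FPKM in vehicle replicate 1.

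Idi1 (chr13:8885501-8892451, plus strand), which interconverts the isoprene units, was at 17.4, 8.57 and 12.4 FPKM in vehicle tumors, 12.3, 16.8 and 12.9 with palbociclib, 20.6, 15.6 and 7.64 with anti-PD-1, and 27.8, 21.5 and 20.1 with the combination. Fdps (chr3:89093588-89101959, minus strand), which joins these units into farnesyl diphosphate, was at 17.3, 8.29 and 11.5, then 12.4, 20.5 and 13.3, then 18.9, 16.6 and 8.75, and 29.4, 24.4 and 18.7 FPKM in the same order. For both genes the combination tumors were above all vehicle tumors, and anti-PD-1 replicate 1 reached into the combination range, as palbociclib replicate 2 did for Fdps. These were also the genes with wide spread between tumors of 1 arm, with an anti-PD-1 mean of 14.6 ± 6.53 FPKM for Idi1 and 14.8 ± 5.33 FPKM for Fdps (SD, n = 3).

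Fdft1 (chr14:63145150-63179578, minus strand), squalene synthase, commits farnesyl diphosphate to sterols. It measured 19.1, 13.7 and 13.8 FPKM in vehicle tumors, 14.8, 23.0 and 13.0 with palbociclib, 19.2, 17.5 and 11.1 with anti-PD-1, and 30.5, 21.9 and 18.8 with the combination. Its combination tumors overlapped every other arm. Sqle (chr15:59315077-59331192, plus strand), squalene epoxidase, the enzyme that follows squalene synthase, had the lowest level of the 8. It stood at 12.5, 6.64 and 9.53 FPKM in vehicle tumors, 9.99, 13.8 and 7.54 with palbociclib, 8.54, 9.96 and 7.58 with anti-PD-1, and 16.7, 13.1 and 12.9 with both agents. These last 3 exceeded every vehicle and every anti-PD-1 value, and palbociclib replicate 2 was among them.

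**Figure D1:**
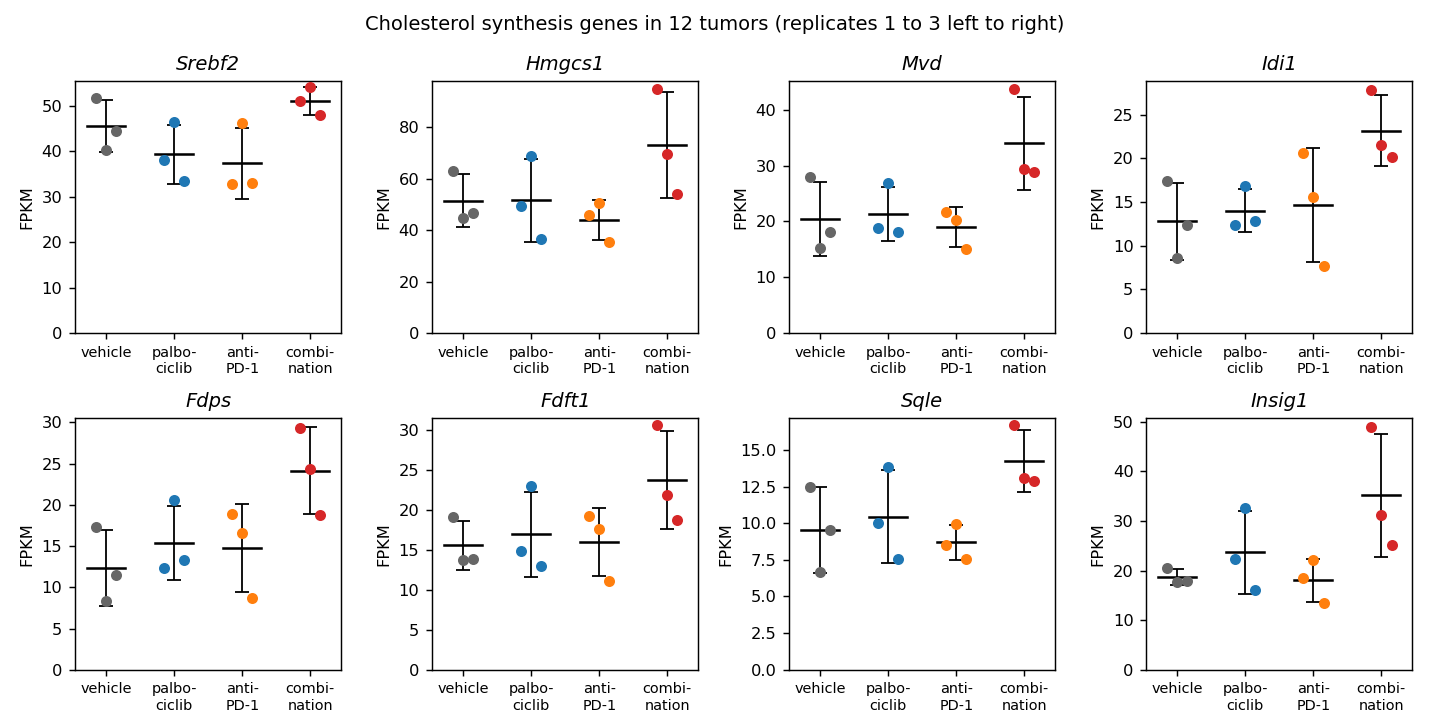
FPKM (linear axis from 0) of the 8 genes in the 12 tumors, 1 panel per gene and 1 point per tumor, with the arm mean and SD as bars (n = 3). The combination mean is the highest in each panel, and combination replicate 1 is the highest tumor for 7 of the 8 genes.

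Across the 8 genes the combination mean was the highest of the 4 arm means each time, and the order of the other 3 arms varied. Combination replicate 1 was the highest tumor for 7 genes, and combination replicate 2 for Srebf2. The lowest tumor was anti-PD-1 replicate 3 for 5 genes and vehicle replicate 2 for 2. The ratio of the highest to the lowest tumor ran from 1.65 for Srebf2 to 3.65 for Idi1. Summed over the 8 genes, the level was 227 to 343 FPKM in the combination tumors, 155 to 230 in vehicle, 151 to 249 with palbociclib and 132 to 199 with anti-PD-1. The sums of the combination arm thus lay above all those of the anti-PD-1 arm and overlapped those of vehicle and palbociclib.

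The comparison of the combination with anti-PD-1 alone asks what palbociclib adds when PD-1 is blocked. All 8 genes were higher in the combination, by 0.47 (Srebf2) to 0.93 (Insig1) on the log2(FPKM + 0.1) scale, with a median of 0.73 against 0.05 for all 15350 genes. Differences here and below are on that scale, from limma fitted to all genes with Benjamini-Hochberg adjustment over all of them. None of the 8 passed the adjusted threshold of 0.05, where 0.00651% of all genes did. Insig1 differed by 0.93 (SE 0.29, adjusted p = 0.327), a 1.91-fold ratio with a 95% interval of 0.30 to 1.56 on the log2 scale. Mvd differed by 0.83 (SE 0.25, adjusted p = 0.327) and Hmgcs1 by 0.71 (SE 0.26, adjusted p = 0.348). Srebf2, at 0.47 (SE 0.16, adjusted p = 0.337), had the narrowest interval, 0.12 to 0.82. Before adjustment 7 of the 8 had a limma p under 0.05, all higher, where 7.61% of all genes were under 0.05 and higher. The exception was Fdft1, whose 95% interval ran from -0.01 to 1.17. In 5 genes (Srebf2, Hmgcs1, Mvd, Sqle and Insig1) all 3 combination tumors exceeded all 3 anti-PD-1 tumors, a separation found upward in 11.4% of all genes.

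Combination replicate 1 was the tumor with the highest sum of 8 adipocyte genes, 998 FPKM against 2.40 to 6.78 in the vehicle and anti-PD-1 arms. Without that tumor all 8 genes still differed in the same direction, by 0.38 to 0.66, with a median of 0.60 and a lowest adjusted p of 0.685. Without anti-PD-1 replicate 3, the lowest tumor for 5 genes, the differences were 0.34 to 0.74 with a median of 0.49. In bulk tumors, a higher share of cells that express a gene and more of its RNA per cell cannot be told apart.

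Against vehicle, the combination was higher for all 8 genes by 0.17 (Srebf2) to 1.0 (Fdps), with a median of 0.68 against 0.03 for all genes. No member was called after adjustment, where 0.013% of genes were. Fdps stood at 1.0 (SE 0.33, adjusted p = 0.212), Idi1 at 0.90 (SE 0.34, adjusted p = 0.238), Insig1 at 0.85 (SE 0.29, adjusted p = 0.213) and Mvd at 0.75 (SE 0.25, adjusted p = 0.213) in the limma fit. Srebf2, whose vehicle level was close to its combination level, had an interval of -0.18 to 0.52. Unadjusted p fell under 0.05 for 6 of the 8, all higher, where 8.64% of all genes were under 0.05 and higher. Mvd, Idi1, Fdps, Sqle and Insig1 separated fully between the arms, as did 10.8% of all genes upward. Without combination replicate 1 the 8 differences ran from 0.17 to 0.85 with a median of 0.52.

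The combination and palbociclib alone differ by the antibody. The 8 genes were higher in the combination by 0.39 to 0.72 with a median of 0.54, against -0.04 for all genes. None was called, where 0.00651% of genes were, and every adjusted p was 1. Srebf2 and Mvd were under 0.05 before adjustment and higher, 2 of 8, where 1.06% of all genes were under 0.05 and higher. Srebf2, Mvd and Idi1 separated fully, 3 of 8 against 4.52% of genes upward. Palbociclib replicate 2, which was the highest palbociclib tumor for all 8 genes, also had skin epithelial genes at a sum of 372 FPKM where the other 11 tumors had at most 1.12 FPKM, and its part in the result was not tested. Without it the 8 differences from the combination were 0.51 to 0.89 (median 0.79). Without combination replicate 1 they were 0.30 to 0.58 (median 0.37), and without the 2 tumors highest in adipocyte genes, combination replicate 1 and palbociclib replicate 1, they were 0.23 to 0.50 (median 0.36).

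With either agent alone the 8 genes lay on both sides of their vehicle levels. With palbociclib 6 of 8 were above vehicle and 2 below, from -0.22 (Srebf2) to 0.34 (Fdps), with a median of 0.11 against 0.07 for all genes. The adjusted count was 0 where 0.143% of genes were called, the unadjusted count 0 where 9.43% of genes were higher, and no member separated fully where 12.9% of genes did upward. With anti-PD-1 3 of 8 were above and 5 below, from -0.30 (Srebf2) to 0.24 (Fdps), with a median of -0.08 against -0.03 for all genes. Here too 0 of 8 were called where 0% of genes were, 0 of 8 had an unadjusted p under 0.05 with a higher level where 3.28% of genes did, and 0 of 8 separated upward where 4.25% did. Downward, 0 of 8 separated where 7.09% of genes did. In either direction 0 of 8 had an unadjusted limma p under 0.05, where 8.4% of genes did. The 95% intervals were wide, -0.35 to 0.91 for Insig1 under palbociclib and -0.71 to 0.55 under anti-PD-1. The first of these holds the 0.85 of Insig1 in the combination and the second does not. That 0.85 has its own error (SE 0.29), so this is not a test between the arms.

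**Figure D2:**
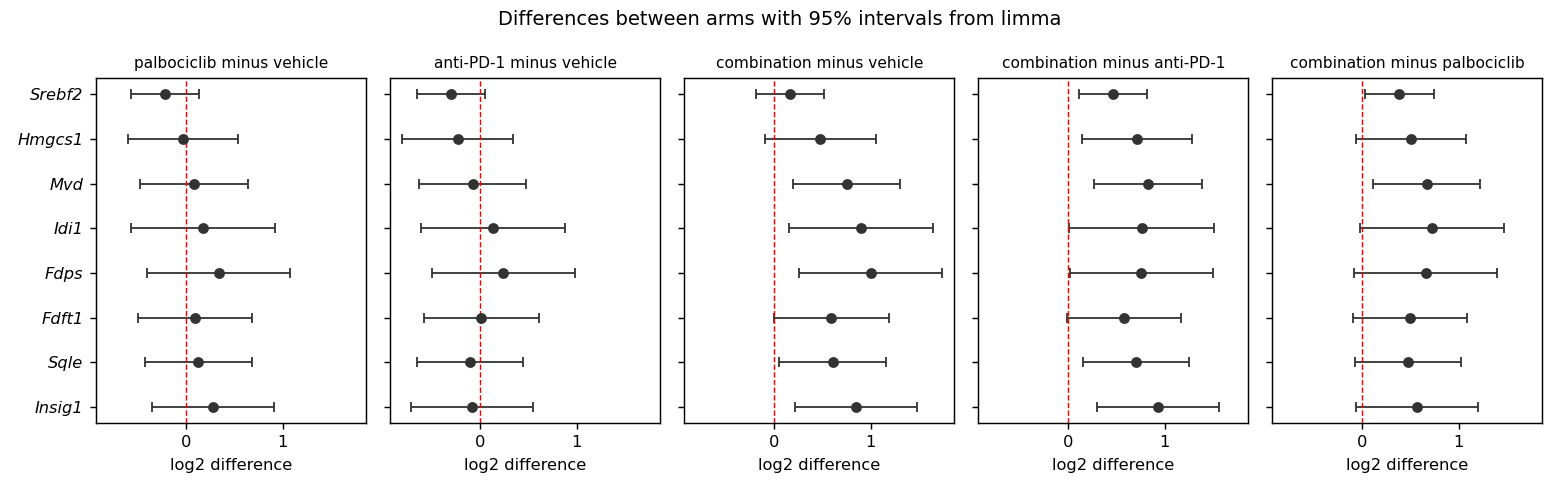
Differences on the log2(FPKM + 0.1) scale for the 8 genes in 5 comparisons, points being limma estimates and bars 95% intervals, with a dashed line at 0. The 3 panels with the combination have all 8 points above 0 and the panels of single agents have points on both sides of it.

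Pooled over both backgrounds, the palbociclib effect (the mean of palbociclib against vehicle and combination against anti-PD-1) was positive for all 8 genes, from 0.13 (Srebf2) to 0.61 (Insig1), with a median of 0.44 against 0.06 for all genes. None was called where 0.313% of genes were, with a lowest adjusted p of 0.149 for Insig1. Before adjustment 4 of 8 were under 0.05, against 14.1% of genes higher. The corresponding effect of anti-PD-1 was 0.05 to 0.45, with 0 called where 0% of genes were and 0 under 0.05 before adjustment where 1.64% of genes were higher. The interaction, the palbociclib difference with anti-PD-1 minus that without, was positive for all 8, from 0.42 (Fdps) to 0.74 (Mvd). It passed for 0 of 8 after adjustment, where 0% of genes did, and before adjustment only for Srebf2 (0.69, adjusted p = 0.788 in limma), 1 of 8 against 2.39% of genes higher. Without anti-PD-1 replicate 3 the interaction was 0.08 to 0.60. These comparisons share arms with each other, so their directions are not separate evidence.

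The 8 genes varied together from tumor to tumor. Over the 12 tumors the 28 pairs had Pearson correlations of log2 levels from 0.584 to 0.973 (median 0.884) and Spearman correlations from 0.580 to 0.951. Idi1 and Fdps, successive enzymes of the pathway, were the closest pair, and Srebf2 and Idi1 the most distant. With the arm means taken out the pairs still ranged from 0.483 to 0.967 with a median of 0.803, so the tumors of 1 arm differed along the same line. Palbociclib replicate 2 and the 3 combination tumors had all 8 genes above their own means, vehicle replicate 1 had 7, and vehicle replicate 2, palbociclib replicates 1 and 3 and anti-PD-1 replicate 3 had 0. Each gene was compared with the mean of the other 7, and Mvd (0.971) and Fdft1 (0.966) followed it most closely while Srebf2 (0.730) followed it least. All points come from the same 12 libraries, so shared depth or composition enters each value.

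**Figure D3:**
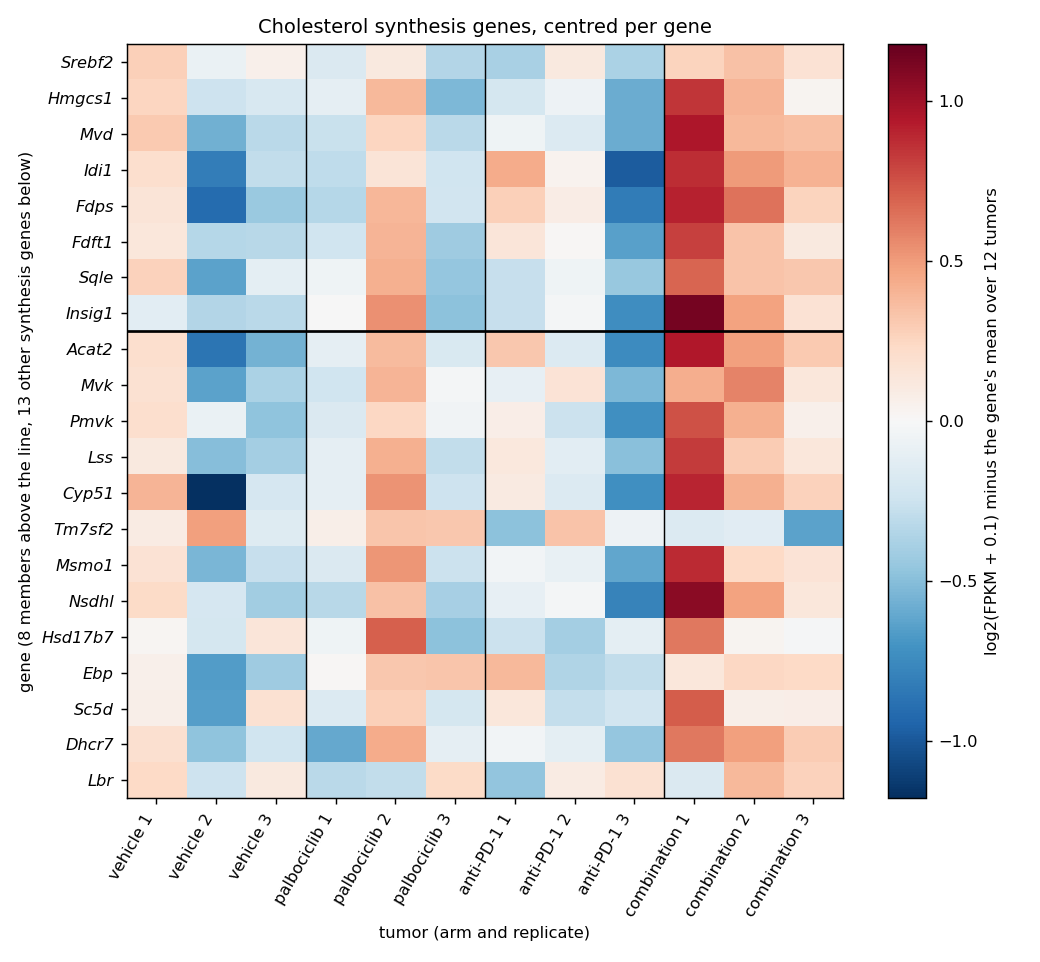
Centred level, log2(FPKM + 0.1) minus the mean of each gene over 12 tumors, for the 8 genes above the line and 13 other synthesis genes below it, in 12 tumors ordered by arm. Combination replicate 1 is high and anti-PD-1 replicate 3 and vehicle replicate 2 are low across most rows, and the rows of Tm7sf2 and Lbr differ from the rest.

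The rest of the pathway was read from a list of 15 genes. Of these 14 were higher in the combination than with anti-PD-1 (median 0.54) and 0 were called, where 0.00651% of all genes were, with 8 higher under 0.05 before adjustment, where 7.61% of all genes were. Against vehicle 14 of 15 were higher (median 0.63), with 0 called, where 0.013% of all genes were, and 9 higher under 0.05 before adjustment, where 8.64% of all genes were. Without combination replicate 1 the medians were 0.44 and 0.43, and 14 of 15 were positive in both. Acat2, which condenses acetyl-CoA at the head of the pathway, had arm means of 10.5 ± 4.21, 13.8 ± 3.02, 12.2 ± 4.38 and 20.3 ± 4.81 FPKM (SD, n = 3) for vehicle, palbociclib, anti-PD-1 and combination. The lanosterol demethylase gene Cyp51 stood at 17.4 ± 8.74, 21.3 ± 6.46, 17.0 ± 4.76 and 29.2 ± 6.92 FPKM. Msmo1, a C4 demethylation enzyme, differed by 0.67 between the combination and anti-PD-1 (SE 0.27, limma adjusted p = 0.387). Tm7sf2, a sterol reductase gene whose step Lbr can also carry out, was the exception to the direction, at -0.24 (SE 0.25, adjusted p = 0.712).

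Correlation with the mean centred level of the 8 genes ranked these enzymes high among 11187 genes with a mean of at least 1 FPKM. Of the 14 other synthesis genes at that level, 7 were in the first 20 and 11 in the first 100, with Msmo1 at 0.972, Lss at 0.963 and Nsdhl at 0.960. The 8 genes were ranked as well, each against a mean it forms part of, and the lowest of them was Srebf2 at rank 122 (0.766). Hsd17b7 (0.661), Ebp (0.536) and Lbr (-0.00201) were further down. Outside all lists the 5 most alike were Mmab (0.940), Aacs (0.910), Scoc (0.903), Slc25a14 (0.901) and Dnaja2 (0.899), each over 12 tumors. Mmab, a vitamin B12 adenosyltransferase gene, ranged from 7.14 to 12.7 FPKM, and Aacs, which activates acetoacetate in the cytosol, from 11.2 to 32.5 FPKM.

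Other branches of sterol and lipid handling were counted in the same way, with 0 genes called in each list and comparison. Fatty acid genes under SREBP1 were higher in the combination than with anti-PD-1 in 14 of 14 (median 0.64). Of these 1 had an unadjusted p under 0.05, a share near the 7.61% of all genes under 0.05 and higher. The size of this difference rested on combination replicate 1, in which the list summed to 1731 FPKM against 446 and 464 FPKM in the other combination tumors, and without that tumor the median was 0.21 with 13 of 14 positive. The 2 with the largest palbociclib effect, Thrsp and Pnpla3, reached 70.2 and 6.88 FPKM in combination replicate 1 and 8.43 and 1.87 FPKM in palbociclib replicate 1, the tumors highest in adipocyte genes. Elsewhere they were listed at no more than 0.338 and 0.116 FPKM.

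Genes of SREBP control had a median of 0.03 between the combination and anti-PD-1, against 0.05 for all genes, and 7 of 10 were positive. Ube2g2, a ubiquitin-conjugating enzyme of endoplasmic reticulum-associated degradation, had a palbociclib effect of 0.20 (SE 0.09, limma adjusted p = 0.231), and Insig2, the paralog of Insig1, of -0.17 (SE 0.09, adjusted p = 0.318). Uptake and egress genes had a median of 0.21. Mylip, a ubiquitin ligase gene induced by LXR, had arm means of 1.42 ± 0.483, 1.94 ± 0.268, 1.08 ± 0.616 and 1.74 ± 1.02 FPKM (SD, n = 3) for vehicle, palbociclib, anti-PD-1 and combination. Its palbociclib effect was 0.52 (SE 0.34, limma adjusted p = 0.397).

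The list of LXR and esterification genes had a median of 0.14 between the combination and anti-PD-1. Between the combination and palbociclib 11 of 11 were lower, with a median of -0.26 and 0 called. Genes at large leaned the same way in that comparison, 58.2% of all 15350 being lower with a median of -0.04, and all 8 macrophage genes were lower as well, with differences from -0.58 to -0.14. Ch25h, the cholesterol 25-hydroxylase, measured 2.63 ± 2.05, 6.58 ± 1.60, 2.98 ± 2.61 and 4.98 ± 1.4 FPKM in the 4 arms, and its palbociclib effect was 1.26 (SE 0.41, limma adjusted p = 0.139). The lipoprotein gene Apoc1 was listed at 0 in all vehicle tumors and at 0.689 to 3.82 FPKM with palbociclib. It was at 0, 0.200 and 0 FPKM with anti-PD-1 and at 7.64, 0.190 and 0.302 FPKM with the combination, the high value being that of the tumor highest in adipocyte genes. Both are expressed by macrophages, and the sum of 8 macrophage genes was 131 to 700 FPKM in vehicle, 549 to 904 with palbociclib, 149 to 523 with anti-PD-1 and 398 to 913 with the combination. That these cells carried the values was not tested.

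The isoprenoid branch, which uses farnesyl diphosphate for ubiquinone, dolichol and prenylation, had 11 of its 12 genes tested and a median of 0.05 between the combination and anti-PD-1. Pdss1, of the ubiquinone side chain, had a palbociclib effect of 0.34 (SE 0.12, limma adjusted p = 0.159), and Rabggta, a prenyltransferase subunit, of -0.34 (SE 0.17, adjusted p = 0.289).

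**Figure D4:**
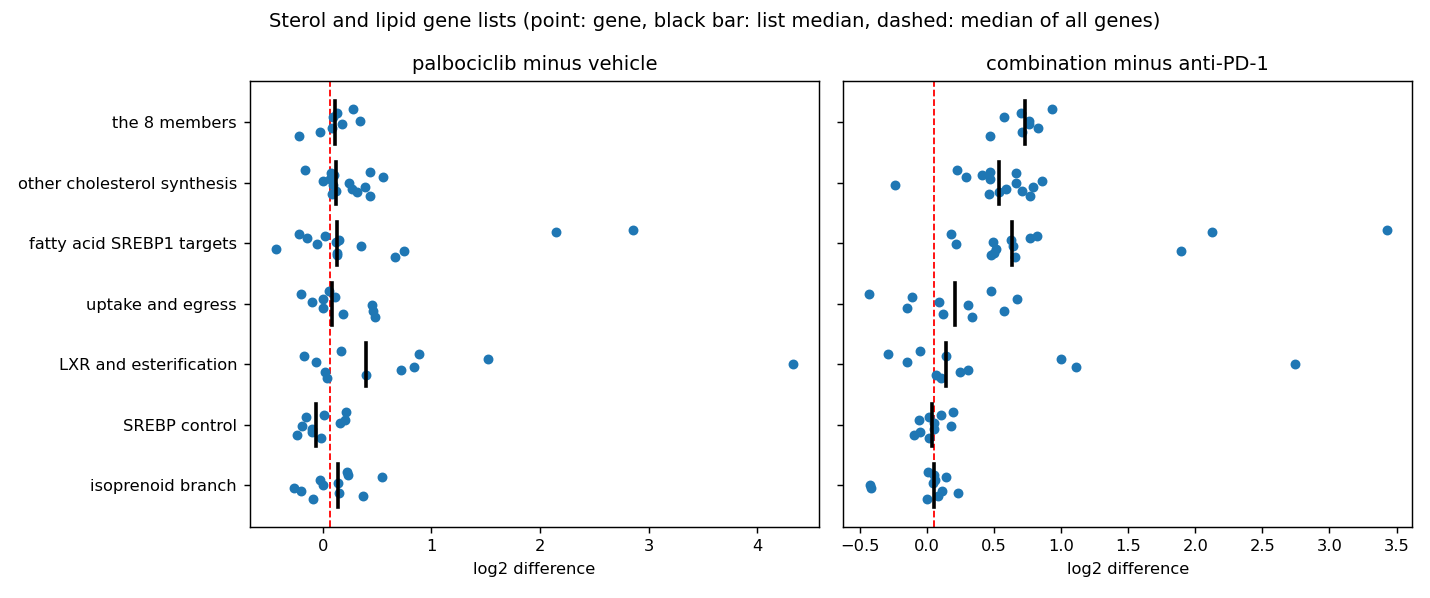
Differences on the log2(FPKM + 0.1) scale by gene list for palbociclib minus vehicle (left) and combination minus anti-PD-1 (right), 1 point per gene, a black bar at the list median and a dashed line at the median of all 15350 genes. On the right the medians of the 8 genes (0.73), the other synthesis genes (0.54) and the fatty acid genes (0.64) stand off the dashed line and the other 4 lists drawn lie nearer to it.

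Gene lists of other tissues and of proliferation are given beside these results. The sum of 10 proliferation genes was 378 to 458 FPKM in vehicle tumors, 496 to 531 with palbociclib, 422 to 569 with anti-PD-1 and 553 to 573 with the combination, so it was above vehicle in every combination and palbociclib tumor. Skeletal muscle genes summed to 187 FPKM in palbociclib replicate 3 and 173 FPKM in combination replicate 2, and without those 2 tumors the 8 genes were 0.42 to 0.99 higher in the combination than with anti-PD-1. Genes listed for sebaceous gland, a tissue rich in sterol synthesis, summed to 28.4 FPKM in combination replicate 1. They summed to 14.3 to 21.8 FPKM in the other 11 tumors, with 4 of 8 above the filter. Most of this sum was Soat1, which is also in the list of LXR and esterification genes. Its mean over all tumors was 14.0 FPKM, and that of Mgst1 was 3.03 FPKM. The sum therefore says little of sebaceous tissue, and whether such tissue was present was not tested. The sum of 8 leukocyte genes was 13.7 to 18.9 FPKM in vehicle, 19.4 to 30.9 with palbociclib, 12.7 to 15.5 with anti-PD-1 and 14.1 to 32.2 with the combination. The part of cell makeup and proliferation in the levels of the synthesis genes was not tested.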

How the data were processed

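Expression was measured by RNA-sequencing in 12 tumors, and groups were taken from the labels. The authors deposited FPKM for 34745 entries per tumor. The submitters' processing notes list HISAT2, GRCm38 and mm10, and the counting tool and annotation are not given in the sources used here. FPKM summed to 261027 to 280080 per tumor. Of 67 repeat entries the one with the highest mean FPKM was kept. A mean FPKM of 0.1 or more was required (15350 of 22912 above 0), and these genes were tested on log2(FPKM + 0.1), which understates changes of low genes, with limma 3.58.1 in R 4.3.3 (1 mean per arm, no covariates, eBayes with a trend, Benjamini-Hochberg adjustment, threshold 0.05). Tests are two-sided. The labels do not say that the tumors of an arm come from separate experiments, so p-values set the differences against the spread between these tumors only.

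The fit was tested on simulated data for the combination against anti-PD-1, with 200 of 15350 genes altered. It called 102 of them when the log2 change was 1 (13 false calls) and 169 when it was 2 (14 false calls). Changes below 1, such as most of those described, can therefore be missed at this size. The 8 genes, the other lists and the tests were chosen with earlier results of these data known. Named genes are the 8, the 4 other synthesis genes and 2 genes of each further list with the largest absolute palbociclib effect, and the 5 outside all lists most correlated with the 8. Of the genes this rule names, 2 are not reported here, and 13 of the 15 other synthesis genes are drawn. Tm7sf2, Lbr, Lss, Nsdhl, Hsd17b7 and Ebp were named after their values were seen. Promoters came from RefSeq and positions from GENCODE M21, which lists 94.4% of the symbols. Alternatives were other pseudocounts, filters, scalings and arms, a replicate block, and tumors left out, of which the omissions by adipocyte and muscle genes and that of combination replicate 1 for the other lists were chosen after seeing the data. Python 3.11.15, numpy 2.4.6, pandas 2.3.3 and matplotlib 3.10.9 were used.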

Additional observations from a re-analysis of the deposited data

How the results depend on the processing

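None of the 8 genes passed the adjusted threshold in any comparison under any alternative (181 counts, each 0), and the smallest adjusted p was 0.0626. No sign changed among 184 alternative values each for the combination against vehicle, anti-PD-1 and palbociclib, or among 176 each for the palbociclib effect and the interaction. Of all 1448 values 24 changed sign, each in a comparison of a single agent with vehicle or in the anti-PD-1 effect of Srebf2. With a TPM scaling Fdft1 stood at -0.0132 for anti-PD-1 against vehicle. Without the 2 tumors highest in skeletal muscle genes, an alternative chosen after seeing the data, the anti-PD-1 effect of Srebf2 was -0.0306 and Hmgcs1 stood at 0.19 for palbociclib against vehicle.

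Leaving out each tumor in turn, palbociclib against vehicle ranged from -0.26 to 0.19 for Hmgcs1, from -0.10 to 0.33 for Mvd, from -0.0795 to 0.427 for Idi1, from -0.10 to 0.35 for Sqle and from -0.15 to 0.26 for Fdft1. Anti-PD-1 against vehicle ranged from -0.26 to 0.18 for Mvd, from -0.33 to 0.12 for Sqle, from -0.17 to 0.54 for Idi1, from -0.0126 to 0.579 for Fdps, from -0.13 to 0.26 for Fdft1 and from -0.24 to 0.12 for Insig1. The anti-PD-1 effect of Srebf2 ranged from -0.0369 to 0.108. The cause was not tested.

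Whether the replicate numbers pair the tumors was not settled. Of same-numbered pairs 7 of 18 had a correlation of deviations over 0.1 (range -0.213 to 0.453, median 0.0277). Among pairs with different numbers 9 of 36 did (range -0.353 to 0.309, median -0.0131). For 6 of 12 tumors the best correlation was with a tumor of the same number. With a replicate block the count of the 8 genes called stayed at 0 and the lowest adjusted p was 0.098, while all genes called for the palbociclib effect went from 48 to 129. That count was 0 without a trend, 11 without a filter, and 0 to 758 leaving out 1 tumor, with 758 without anti-PD-1 replicate 1. With 3 tumors per arm, simulated log2 changes of 1 were called in 102 of 200 genes for the combination against anti-PD-1. Most differences seen here were smaller, a size that was not simulated.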
